A study of Arabidopsis thaliana with 12 samples.

Results

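The transcripts described here were already bright on the arrays of water-treated Arabidopsis thaliana seedlings and became brighter still within 30 min of chitooctaose, in both genotypes of the study. A probe set, the group of array probes that reads 1 transcript, was a member when its mean deposited intensity over the 6 water arrays was at least 8 on the log2 scale and its mean log2 intensity, with values under 16 set to 16, was higher by at least 1 on the chitooctaose arrays than on the water arrays in the erf5/6 mutant and also in wild type (WT). The rule took 72 of 22746 probe sets, 0.317% of the array and 1.33% of the 5425 probe sets at or above that level in water, which are called bright here. A gene was listed for 35 of them, 1 probe set to each gene, and none was listed for the other 37. The values that chose the members are the level in water and the change after chitooctaose in each genotype, so these are given as a description. Nothing is read from a test of them.

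RNA of whole seedlings 14 days old was measured on 12 arrays, 3 for each of 4 groups: erf5/6 mutant with 1 µM chitooctaose, erf5/6 mutant with water, WT with 1 µM chitooctaose and WT with water, each treated for 30 min. The mutant is labelled as a double mutant of ERF5 and ERF6, transcription factors of the AP2/ERF family; its alleles and background are not given in the sources used here. All 4 groups were grown in 1/2 MS medium with vitamin B5 and glucose under constant light, and the controls received water in place of the oligosaccharide. The labels call the 3 arrays of a group biological replicates, without naming separate cultures, so the p-values measure only the spread between these arrays.

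Chitooctaose is a soluble fragment of chitin, the polymer of fungal cell walls. Plant cells sense such fragments with receptor kinases that carry LysM domains at the plasma membrane, and within minutes calcium enters the cytosol, reactive oxygen is made outside the cell, protein kinase cascades are switched on and the transcription of many genes changes. Many of the early genes are nearly silent at rest. The members treated here belong to the smaller number whose probe sets already read, on average, at least 8 on the log2 scale in water.

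The arrays were close in scale, with median intensities between 77.0 and 83.2, and within a group no pair of arrays correlated below 0.989. The first principal component of the normalized values carried 64.9% of the variance and parted the chitooctaose arrays from the water arrays. The second carried 7.42%, and there array 2 of chitooctaose-treated WT (-0.67) and array 1 of water-treated WT (-0.49) stood apart from the other 10 (-0.14 to 0.29). Over the members the median deviation from the group mean was -0.016 and -0.038 on the log2 scale on those arrays, against at most 0.063 in size on any array, but single members read low there, AT3G25600 and TET8 on array 1 of water-treated WT. The annotation used listed no probe set for ERF5 or ERF6, so the genotype labels were not checked against the targeted transcripts. It gave no gene for 8730 probe sets, and whether any of these reads ERF5 or ERF6 was not tested. The green tissue markers RCA and LHCB4.1 and the root marker PYK10 averaged between 3811 and 6396 in each of the 4 groups, and none of the 3 was called in either genotype. The other root marker measured, EXPA7, was dim, with group means between 87.7 and 110.9, and was not called either. Transcripts of shoot and root were thus both present, for the root mainly by the reading of PYK10.

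By count, a rise was less frequent and smaller in ratio among already bright transcripts than among dim ones. Both were chosen by that rise, so no test is given. The water arrays set the level and also enter each rise, so a low water reading both lowers the level and enlarges the rise. Of the 17321 probe sets under the limit of 8 in water, 528 (3.05%) had a rise of at least 1 in both genotypes, against 72 of 5425 (1.33%) of the bright ones; over the whole array the share was 2.64%. Within the bright range it was 1.88% for log2 levels in water between 8 and 9 (50 of 2663), 1.4% between 9 and 10 (20 of 1424), 0.252% between 10 and 11 (2 of 793) and 0 of 545 from 11 upward. The median rise of the members was 1.74 in the mutant and 1.59 in WT on the log2 scale of the deposited values, against 2.16 in the mutant and 1.97 in WT for the 528 dimmer probe sets. A rise of at least 4-fold in both genotypes was seen for 21 members (29.2%) and for 249 of the dimmer ones (47.2%), and the largest rises among members were 3.17 in the mutant and 3.25 in WT, against 6.1 in the mutant and 5.97 in WT among the dimmer ones. Of the bright probe sets, 10 were lower by at least 1 in both genotypes. A level in one probe set cannot be set against that of another as an amount of RNA, since probes differ in brightness, and in RNA from whole seedlings more RNA per cell and more cells with the transcript cannot be told apart.

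**Figure D1:**
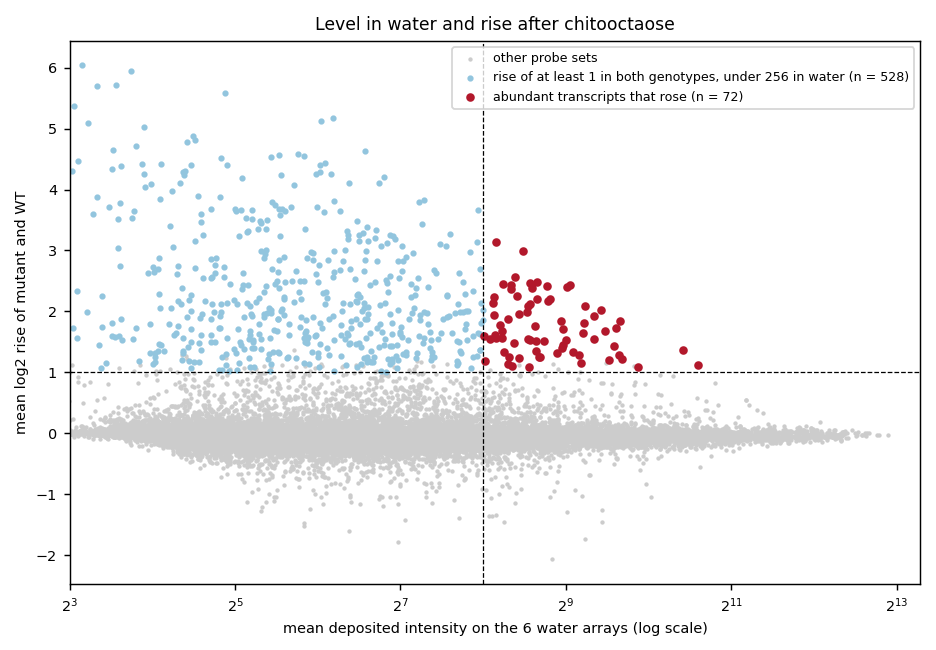
Mean log2 rise of mutant and WT after chitooctaose (vertical axis, deposited values) against the mean deposited intensity on the 6 water arrays (horizontal axis, log scale; probe sets with an intensity under 8 are not drawn), 1 point per probe set. The 72 members lie right of the vertical dashed line, the limit on the level, and above the horizontal one at 1; the 528 dimmer probe sets that rose reach higher ratios.

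The edges of the rule fell within a continuous range of values. The 4 members nearest the level limit had 257.4, 260.3, 272.2 and 278.4 in water, the last of them pEARLI4, and the 4 probe sets nearest outside it, AT2G39210 (251.2) and 3 without a listed gene, had between 250.4 and 255.5. Nearest the limit on the rise, members had 1.03, 1.10, 1.10 and 1.11 in WT, the last of them AT3G19010, and the 4 probe sets nearest outside had between 0.992 and 0.996 there. In the mutant the nearest members had 1.04, 1.07, 1.11 and 1.16; SRC2 was the one at 1.07. No bright probe set that met the limit in WT missed it in the mutant, while 15 met it in the mutant and missed it in WT, with WT rises between 0.41 and 0.996 and a median of 0.93. These counts follow the scaling of the arrays: with quantile-normalized values 81 bright probe sets met the limit in the mutant, 76 in WT and 73 in both, 70 of them members.

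On the deposited scale every array with chitooctaose read above every water array of the same genotype for 72 of 72 members in the mutant and 72 of 72 in WT, against 12.7% of all tested probe sets in the mutant and 9.26% in WT. Limma, a linear model with a shared estimate of the spread, called 72 of 72 higher in each genotype as well at an adjusted p under 0.05, against 5.95% of all tested probe sets in the mutant and 6.06% in WT. The rule largely fixes both counts, and nothing is read from them. In the descriptions that follow, intensities are as deposited, array by array, and folds and log2 changes come from the quantile-normalized values that the tests use.

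Proteins that bind calcium or membrane lipids made up 5 of the 35 listed genes. Calmodulin-like proteins hold calcium in EF-hand loops and pass the signal to target proteins. AT3G25600, which encodes one of them, read 1445, 1333 and 1483 in chitooctaose-treated mutant seedlings, against 305, 275 and 259.7 in water-treated mutant seedlings, and 1254, 1027 and 1238 in chitooctaose-treated WT seedlings, against 187, 329 and 321 in water-treated WT seedlings. The mutant arrays with chitooctaose lay above those of WT without overlap, and array 1 of water-treated WT was the dimmest of the 12. The rise was 4.68-fold in the mutant and 4.36-fold in WT.

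CML42 (AT4G20780), another calmodulin-like gene, read 1335, 1280.2 and 1244 in chitooctaose-treated mutant seedlings, against 331, 289 and 271 in water-treated mutant seedlings, and 836, 1020.3 and 844 in chitooctaose-treated WT seedlings, against 252, 295 and 245 in water-treated WT seedlings. The water arrays of the genotypes overlapped, and the 3 mutant arrays with chitooctaose all lay above the 3 of WT. The rise was 2.00 ± 0.11 on the log2 scale in the mutant and 1.78 ± 0.11 in WT (SE, n = 3 arrays per group), a ratio of 3.99 in the mutant and 3.44 in WT. AT2G46600, a small EF-hand protein known to bind a calmodulin-regulated kinesin, averaged 2147 ± 113 in chitooctaose-treated mutant seedlings, against 788 ± 178 in water-treated mutant seedlings (SD, n = 3 each). The WT means were 1960.0 ± 244 with chitooctaose and 745 ± 111 with water.

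C2 domains bind membrane lipids, in many proteins under the control of calcium, and 2 members carry one. AT4G34150 read 2835, 2944 and 2842 in chitooctaose-treated mutant seedlings, against 539, 639 and 478 in water-treated mutant seedlings, and 2687, 2864 and 2905 in chitooctaose-treated WT seedlings, against 500.5, 549.7 and 469 in water-treated WT seedlings, and the genotypes overlapped in either treatment. Its ratio was 4.9 in the mutant and 5.68 in WT. SRC2 (AT1G09070), named after a soybean gene that is regulated by cold, read 1783, 2119 and 2034 in chitooctaose-treated mutant seedlings, against 909.9, 953 and 947 in water-treated mutant seedlings, and 2186, 1794 and 2114 in chitooctaose-treated WT seedlings, against 946, 910.2 and 961 in water-treated WT seedlings. With normalized values SRC2 was 1.95-fold higher in the mutant and 2.2-fold in WT, so it sat at the edge of the rule. The genotypes overlapped in either treatment.

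Receptors and receptor-like proteins were 3 of the listed genes. AT4G08850 encodes a leucine-rich repeat receptor kinase. It read 1113, 928 and 1049 in chitooctaose-treated mutant seedlings, against 279.8, 364 and 248 in water-treated mutant seedlings, and 884, 729 and 792 in chitooctaose-treated WT seedlings, against 338, 458 and 303 in water-treated WT seedlings. The mutant arrays with chitooctaose lay above those of WT without overlap, and the water arrays of the genotypes overlapped. The rise was 3.21-fold in the mutant and 2.23-fold in WT.

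AT1G33600, a leucine-rich repeat protein, read 1445, 1296 and 1482 in chitooctaose-treated mutant seedlings, against 383, 372 and 303 in water-treated mutant seedlings, and 965, 955 and 806 in chitooctaose-treated WT seedlings, against 253, 333 and 241 in water-treated WT seedlings. The mutant arrays were above the WT arrays without overlap after chitooctaose and overlapped with them in water. The ratio to water was 3.68 in the mutant and 3.35 in WT. AT5G48540 encodes a secreted protein with the cysteine-rich DUF26 domain that is also found in a large family of plant receptor kinases. It averaged 1752 ± 64.7 with chitooctaose and 302 ± 64.8 with water in the mutant (SD, n = 3 each), and 1503 ± 252 with chitooctaose and 303 ± 83.1 with water in WT.

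Other membrane proteins, 5 genes, rose by similar ratios, between 3.8 and 4.67 in the mutant and between 4.1 and 5.27 in WT. TET8 (AT2G23810), a tetraspanin known as a marker of plant extracellular vesicles, read 2913, 2847 and 2918 in chitooctaose-treated mutant seedlings, against 720.3, 692 and 717 in water-treated mutant seedlings, and 2829, 2532 and 2685 in chitooctaose-treated WT seedlings, against 562, 716 and 732 in water-treated WT seedlings. With chitooctaose the deposited mutant arrays lay just above those of WT, which the normalized arrays did not show, and the water arrays overlapped. The ratio was 3.8 in the mutant and 4.1 in WT. AT5G35735 encodes a protein with cytochrome b561 and DOMON domains, which carry electrons across membranes. It read 1984, 2239 and 2095 in chitooctaose-treated mutant seedlings, against 425, 441 and 434 in water-treated mutant seedlings, and 1933, 1889 and 1807 in chitooctaose-treated WT seedlings, against 497, 461 and 392 in water-treated WT seedlings. The deposited mutant arrays with chitooctaose lay above those of WT, the normalized ones overlapped, and so did the water arrays, with a rise of 4.45-fold in the mutant and 4.25-fold in WT.

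AT5G19240, a GPI-anchored surface glycoprotein, had ratios of 4.55 in the mutant and 4.71 in WT. AT2G18690, a transmembrane protein, had 4.67 in the mutant and 4.23 in WT. AT1G50740, of the TMEM14 family of small membrane proteins, had 4.67 in the mutant and 5.27 in WT. Over these 3 genes the dimmest chitooctaose array read 1265, for AT5G19240 in WT, and the brightest water array 489, for AT2G18690 in WT.

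**Figure D2:**
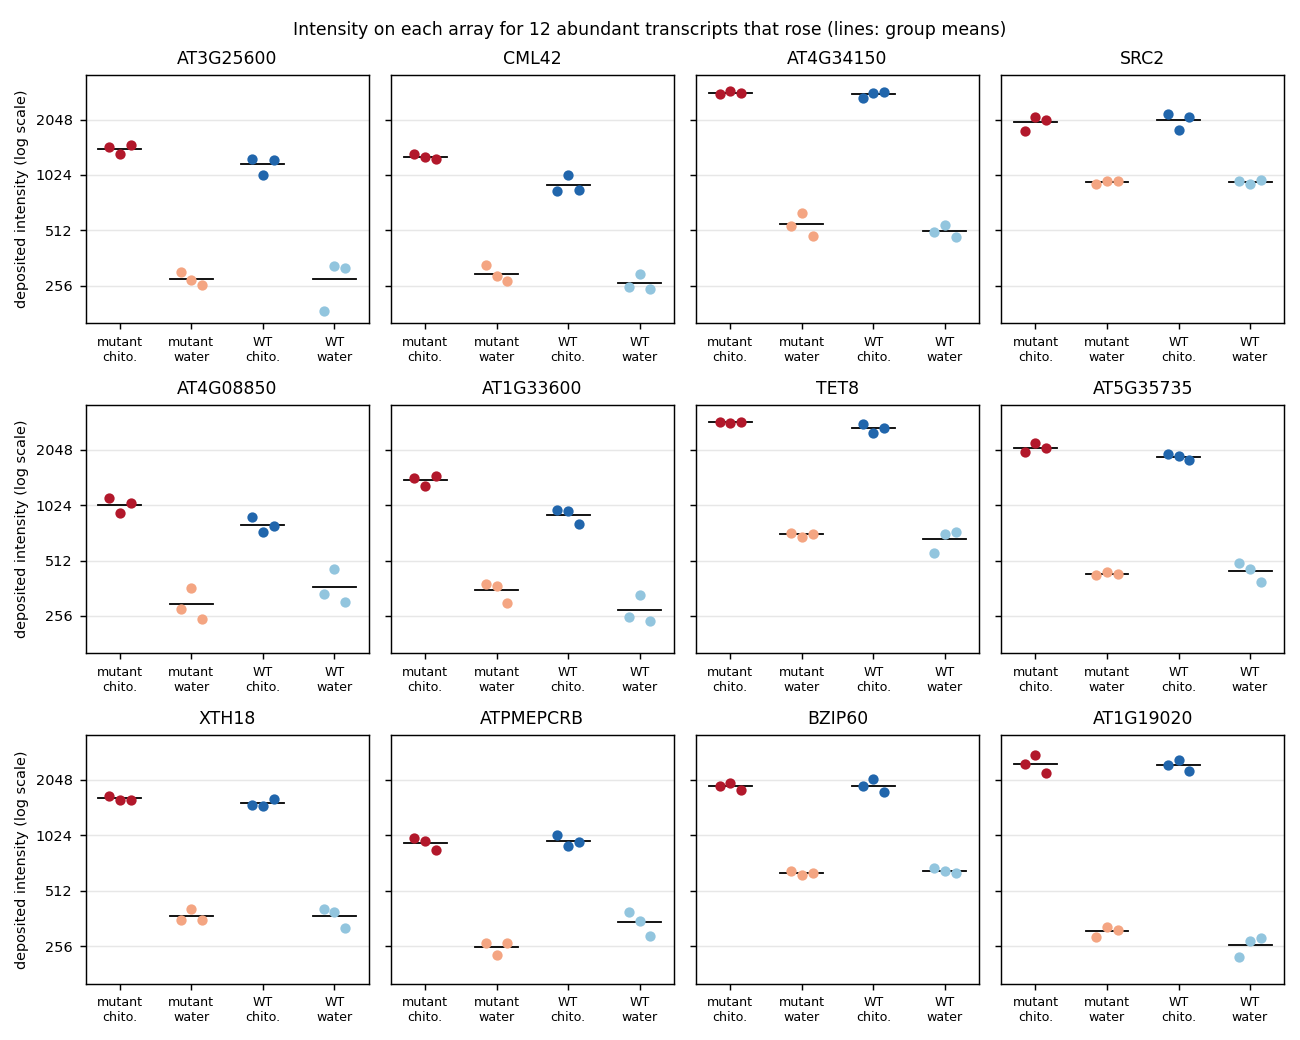
Deposited intensity (log scale) of 12 members on each array, 3 points per group, with chitooctaose-treated and water-treated mutant seedlings left of chitooctaose-treated and water-treated WT seedlings; horizontal lines are group means. In each panel the 6 chitooctaose arrays lie above the 6 water arrays, and the mutant points with chitooctaose lie above those of WT for AT3G25600, CML42, AT4G08850, AT1G33600, TET8 and AT5G35735, the last 2 of them on the deposited scale only. With normalized values such genotype groups did not overlap, in either direction, for 11 of 72 members (15.3%), against 10.5% of all tested probe sets.

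Enzymes of the cell wall were 3 of the listed genes. Xyloglucan endotransglucosylases cleave and rejoin the xyloglucan that ties cellulose fibres together. XTH18 (AT4G30280) read 1677, 1601 and 1602 in chitooctaose-treated mutant seedlings, against 357, 406 and 355 in water-treated mutant seedlings, and 1488, 1485 and 1611 in chitooctaose-treated WT seedlings, against 409, 391 and 323 in water-treated WT seedlings. The genotypes overlapped in either treatment, and the rise was 2.01 ± 0.08 on the log2 scale in the mutant and 2.06 ± 0.08 in WT (SE, n = 3 arrays per group). XTH19, a gene of the same family that missed the limit on the rise in both genotypes, averaged 1176 with chitooctaose and 690.4 with water in the mutant, and 1097 with chitooctaose and 552 with water in WT, a log2 change of 0.63 ± 0.09 in the mutant and 0.99 ± 0.09 in WT (SE). Whether either probe set also reads the other gene was not tested.

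Pectin methylesterases remove methyl groups from pectin and so change how it gels. ATPMEPCRB (AT4G02330), which encodes one, read 990.2, 953 and 853 in chitooctaose-treated mutant seedlings, against 267, 229 and 267 in water-treated mutant seedlings, and 1026, 892 and 939 in chitooctaose-treated WT seedlings, against 393, 351 and 292 in water-treated WT seedlings. The 3 water arrays of the mutant lay below the 3 of WT, and the chitooctaose arrays of the genotypes overlapped. The rise was 3.36-fold in the mutant and 2.8-fold in WT. AT3G10720, of the same enzyme family, was higher by 2.4-fold in the mutant and 2.43-fold in WT.

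Gene regulation and protein turnover held 5 genes. BZIP60 (AT1G42990) encodes a membrane-held transcription factor of the unfolded protein response, whose active form is made when its messenger RNA is spliced by IRE1 under stress in the endoplasmic reticulum; the probe set was not known here to part the spliced from the unspliced form. It read 1909.8, 1970.3 and 1808 in chitooctaose-treated mutant seedlings, against 656, 627 and 638 in water-treated mutant seedlings, and 1905, 2072 and 1753 in chitooctaose-treated WT seedlings, against 678, 656 and 638 in water-treated WT seedlings. The genotypes overlapped in either treatment, and the rise was 2.74-fold in the mutant and 2.93-fold in WT.

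AT3G56880 encodes a VQ-motif protein, of a family whose members bind WRKY factors. It read 1760.0, 1583 and 1872 in chitooctaose-treated mutant seedlings, against 407, 412 and 360.4 in water-treated mutant seedlings, and 1517, 1629.7 and 1449 in chitooctaose-treated WT seedlings, against 300.5, 426 and 359.8 in water-treated WT seedlings. Mutant and WT arrays overlapped in either treatment. The ratio was 4.1 in the mutant and 4.28 in WT. AT3G52800, an A20/AN1 zinc finger protein of the stress-associated family, averaged 1505 ± 64.4 with chitooctaose and 521 ± 54.6 with water in the mutant, and 1458 ± 41.9 with chitooctaose and 508 ± 33.4 with water in WT (SD, n = 3 each). The RING finger gene AT4G26400 was 2.78-fold higher in the mutant and 3.11-fold in WT, with chitooctaose arrays between 709 and 1035. AT5G42050, which encodes a protein with a DCD domain, a domain named for development and cell death, was 2.4-fold higher in the mutant and 2.39-fold in WT.

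Metabolic and metal-binding proteins were 4 genes with ratios between 2.06 and 3.17 in the mutant and between 2.15 and 3.31 in WT. AT1G55450, of the S-adenosylmethionine-dependent methyltransferases, read 2676, 2933 and 2501 in chitooctaose-treated mutant seedlings, against 808, 933 and 675 in water-treated mutant seedlings, and 2461, 2539.8 and 2345 in chitooctaose-treated WT seedlings, against 774, 780.2 and 707 in water-treated WT seedlings. Mutant and WT overlapped in either treatment, and the ratio was 3.17 in the mutant and 3.31 in WT. AT3G15530, of the same broad class of enzymes, was 2.06-fold higher in the mutant and 2.17-fold in WT, close to the limit of the rule. The dioxygenase family gene AT3G19010 was 2.4-fold higher in the mutant and 2.15-fold in WT. AT5G03380, a protein with a heavy-metal-associated domain, was 2.46-fold higher in the mutant and 2.19-fold in WT. The 2 genes of the PEARLI4 family, pEARLI4 itself (AT2G20960) and AT4G38550, had ratios of 4.51 and 2.75 in the mutant, and 3.94 and 2.75 in WT. The probe set of AT4G38550 is of the kind that can read more than 1 related transcript, as are 3 members without a listed gene.

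The remaining 8 listed genes are given no role here. Among them AT1G19020 had the largest ratio of all listed members. It read 2506, 2817 and 2228 in chitooctaose-treated mutant seedlings, against 286, 325 and 314 in water-treated mutant seedlings, and 2484, 2642 and 2291 in chitooctaose-treated WT seedlings, against 224, 273 and 283 in water-treated WT seedlings. The rise was 2.93 ± 0.13 on the log2 scale in the mutant and 3.29 ± 0.13 in WT (SE, n = 3 arrays per group), and the 3 water arrays of the mutant lay above the 3 of WT while the chitooctaose arrays overlapped. AT4G36500 (5.46-fold in the mutant and 5.99-fold in WT), AT1G32920 (5.18 in the mutant and 5.58 in WT), AT3G57450 (3.59 in the mutant and 3.83 in WT) and AT1G19380 (3.27 in the mutant and 3.04 in WT) came next in mean rise. AT1G27100, AT1G31130 and AT5G18150 had between 2.31-fold and 2.91-fold in the mutant and between 2.23-fold and 2.7-fold in WT.

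The 37 members without a listed gene overlapped with the listed ones in their levels in water, and held both members above 10 on the log2 scale. They averaged between 257 and 1550 in water, against 278 to 938 for the listed members, and rose by 1.04 to 3.17 in the mutant and by 1.03 to 2.81 in WT on the log2 scale of the deposited values, against 1.07 to 3.02 in the mutant and 1.11 to 3.25 in WT for the listed members. The probe set among them with the largest rise in the mutant read 3224, 2634 and 3089 in chitooctaose-treated mutant seedlings, against 376, 328 and 289 in water-treated mutant seedlings, and 2967, 2334 and 2699 in chitooctaose-treated WT seedlings, against 349, 485 and 319.8 in water-treated WT seedlings. Array 2 of water-treated WT was its brightest water array, and the genotypes overlapped in either treatment.

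Whether the genotypes agreed was first asked of the response itself, as the mutant response minus the WT response over all 18680 probe sets above the floor on at least 1 array, with all 72 members among them. Limma called 0 of 72 members, against 0.0% (0 of 18680) over the table, and the lowest adjusted p of a member was 0.975. At an unadjusted p under 0.05 there were 2 members (2.78%), against 4.6% over the table. The differences of the members lay between -0.53 and 0.53, and the median size was 0.098, against 0.12 over all tested probe sets. For 70 of 72 members the 95% confidence interval lay within 1 to either side, and for 44 within 0.5; for the rest the interval also held differences beyond 0.5. Since the rule asks for a rise in both genotypes, a transcript that responded in 1 genotype only could not be a member, and the agreement is read within that limit.

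Which genotype responded more among the members depended on the scaling of the arrays. The response was larger in the mutant for 32 of 72 members (44.4%), with a median difference of -0.03, against 49.3% and -0.003 over all tested probe sets. With the intensities as deposited it was larger in the mutant for 58 of 72 (80.6%), with a median of 0.106, but the median over all tested probe sets had moved to 0.101 and 71.1% of them were above 0. Relative to that shift 36 of 72 members lay above the median of all probe sets. The medians of the arrays moved with it: 80.7 to 83.2 in chitooctaose-treated mutant seedlings, against 77.0 to 79.1 in water-treated mutant seedlings, and 78.1 to 79.2 in chitooctaose-treated WT seedlings, against 79.2 to 83.2 in water-treated WT seedlings. Across the members, which are no replicates, come from the same 12 arrays and were limited to at least 1 in both genotypes, the deposited rises of the 2 genotypes had r = 0.942 (n = 72 probe sets).

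**Figure D3:**
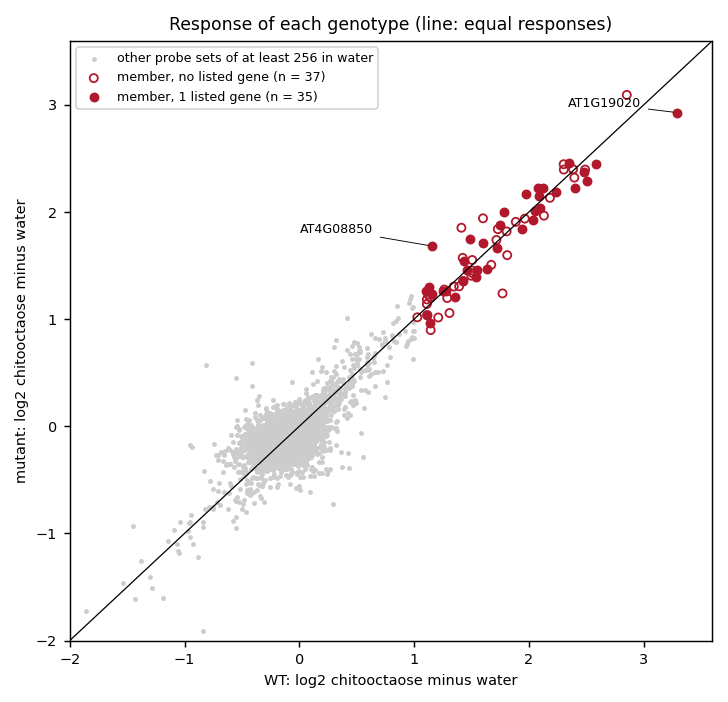
Log2 change after chitooctaose in the mutant (vertical axis) against WT (horizontal axis), normalized values, 1 point per bright probe set; filled circles are members with a listed gene and open circles those without. The members follow the line of equal responses, with AT4G08850 above it and AT1G19020 below it.

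No single member passed the test. Among the listed genes those with the lowest p in each direction follow. AT4G08850, the receptor kinase gene, had a mutant response minus WT response of 0.53 ± 0.23 (SE; 95% interval 0.02 to 1.04; limma adjusted p = 0.997). ATPMEPCRB had 0.26 ± 0.16 (adjusted p = 0.997 from limma) and pEARLI4 0.19 ± 0.13. In the other direction AT1G19020 had -0.36 ± 0.19 (95% interval -0.78 to 0.05), AT4G34150 -0.21 ± 0.13 and AT1G50740 -0.18 ± 0.15, each with a limma adjusted p of 0.997. The lowest unadjusted p of all members belonged to a probe set without a listed gene, which read 2369.6, 2532 and 2558 in chitooctaose-treated mutant seedlings, against 657, 689 and 571 in water-treated mutant seedlings, and 1968, 2084 and 1944 in chitooctaose-treated WT seedlings, against 838, 876 and 622 in water-treated WT seedlings. Its mutant arrays with chitooctaose lay above those of WT, and its water arrays overlapped. The difference between its responses was 0.44 ± 0.15, with an interval of 0.12 to 0.76 and a limma adjusted p of 0.975. In the other direction 2 probe sets without a listed gene had a lower p than AT4G34150, with -0.20 ± 0.10 and -0.53 ± 0.29 (SE, limma adjusted p of 0.997 for each). The second was the largest difference of any member. Its array 2 of chitooctaose-treated mutant seedlings read only 554, against 1045 and 1007 on the other arrays of that group.

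**Figure D4:**
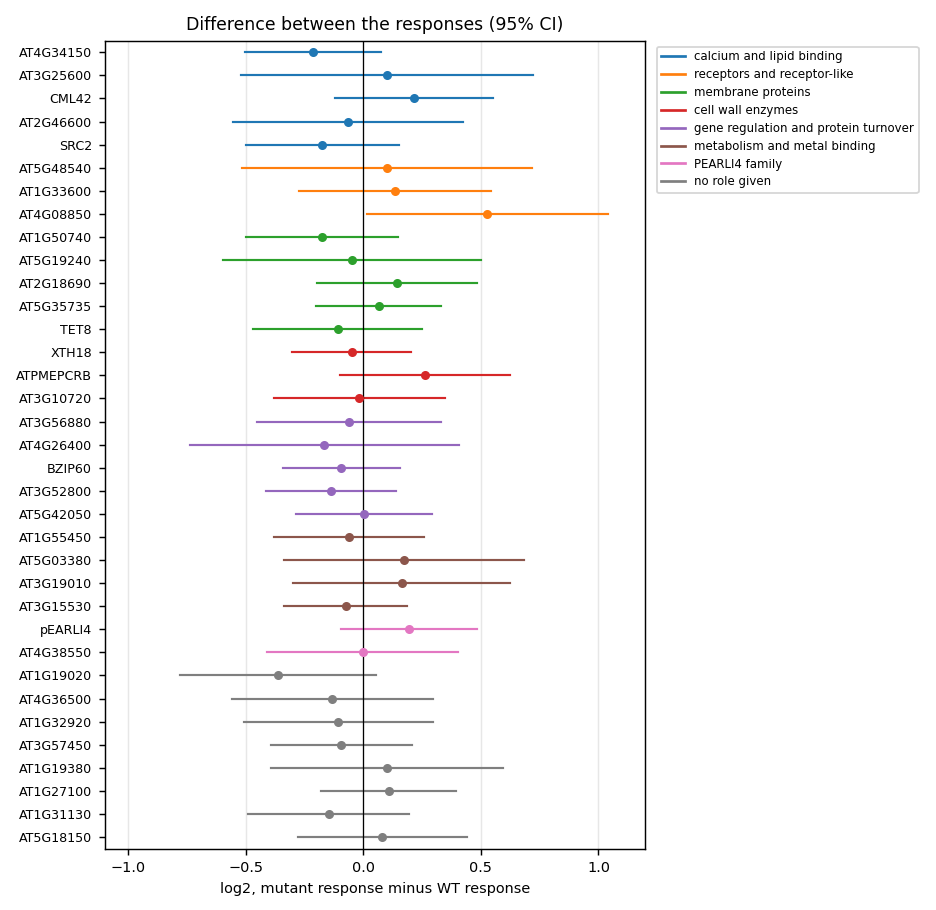
Mutant response minus WT response on the log2 scale for the 35 members with a listed gene, in groups by role; points are estimates and lines 95% confidence intervals from limma. The estimates lie between -0.36 and 0.53, and the interval of AT4G08850 alone does not reach 0 before adjustment.

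The second question was whether the mutant held these transcripts at another level before or after the treatment. In water, mutant minus WT, limma called 0 of 72 members, against 0.0321% over the table (6 of 18680), with a lowest adjusted p of 0.703; 6 members (8.33%) had an unadjusted p under 0.05, against 6.05%. The median difference was 0.05, against -0.001 over all tested probe sets, and 45 of 72 (62.5%) were higher in the mutant, against 48.5%. Measured from 0, the direction turned with the scaling: on the deposited values 33 of 72 (45.8%) were higher in the mutant, with a median of -0.004, against 35.9% and -0.047 over all tested probe sets. Relative to that shift of all probe sets, 44 of 72 members lay above their median, close to the normalized count. Among the listed genes AT1G33600 had a log2 difference of 0.43 ± 0.13 (SE, adjusted p = 0.703 from limma), AT1G19020 had 0.31 ± 0.13 and AT1G31130 0.26 ± 0.11. ATPMEPCRB had -0.37 ± 0.12 (adjusted p = 0.703 from limma), AT4G08850 -0.24 ± 0.16 and AT2G18690 -0.17 ± 0.11. The last 2 rested on single arrays: without array 2 of water-treated WT they were -0.07 for AT4G08850 and -0.09 for AT2G18690, without array 2 of water-treated mutant seedlings AT4G08850 was -0.38, and without array 1 of water-treated WT AT2G18690 was -0.30. Without a listed gene, 2 probe sets with 0.30 ± 0.11 and 0.18 ± 0.07 were also under an unadjusted p of 0.05. The normalized water arrays of the genotypes did not overlap for 7 members (9.72%), against 10.3% of all tested probe sets.

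After chitooctaose, mutant minus WT, limma again called 0 of 72 members, against 0.0214% over the table (4 of 18680), with a lowest adjusted p of 0.412; 5 members (6.94%) had an unadjusted p under 0.05, against 6.46%. AT1G33600 had the lowest p, with a log2 difference of 0.56 ± 0.13 (SE; 95% interval 0.28 to 0.85, adjusted p = 0.412 from limma). CML42 had 0.45 ± 0.11 (95% interval 0.21 to 0.68, adjusted p = 0.436 from limma) and AT1G27100 0.16 ± 0.09. In the other direction the listed genes with the lowest p were SRC2 (-0.11 ± 0.10), BZIP60 (-0.08 ± 0.08) and AT4G26400 (-0.18 ± 0.18). The lowest p in that direction over all members belonged to a probe set without a listed gene, with -0.25 ± 0.09 (SE; 95% interval -0.45 to -0.05, adjusted p = 0.681 from limma). With it, AT1G33600 and CML42, the 5 members under an unadjusted p of 0.05 held 2 more without a listed gene, with 0.33 ± 0.11 and 0.23 ± 0.10. The normalized chitooctaose arrays of the genotypes did not overlap for 11 members (15.3%), against 10.5% of all tested probe sets, and 44 of 72 (61.1%) were higher in the mutant, against 47.6%. On the deposited values 60 of 72 (83.3%) were higher in the mutant, with a median of 0.107, against 64% and 0.05 over all tested probe sets. Relative to that shift of all probe sets, 51 of 72 members lay above their median. With single arrays left out the normalized count was between 36 and 47 of 72. It was 36 without array 2 of chitooctaose-treated mutant seedlings and 37 without array 2 of chitooctaose-treated WT. AT1G33600 was the member with the lowest p in both treatments, with a positive difference in each, and its response differed between the genotypes by 0.14 ± 0.18 (SE).

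**Figure D5:**
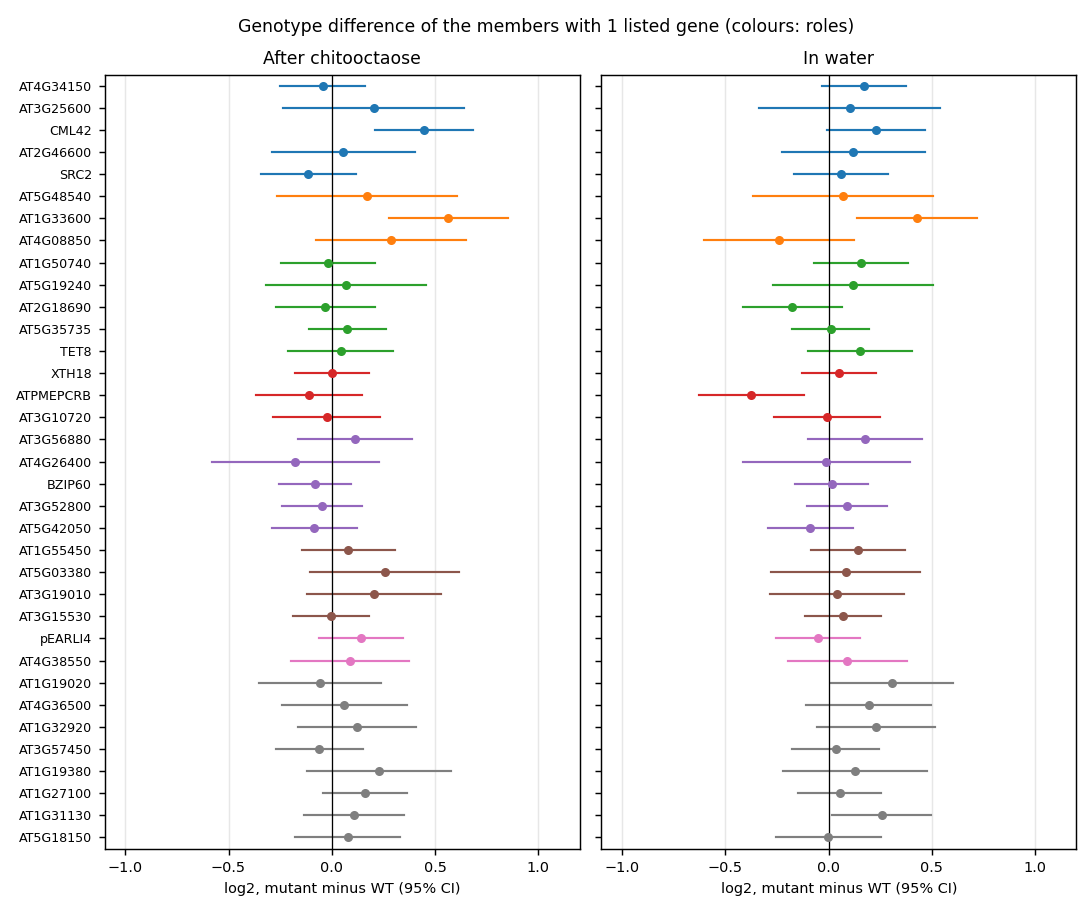
Mutant minus WT on the log2 scale after chitooctaose (left panel) and in water (right panel) for the 35 members with a listed gene; points are estimates and lines 95% confidence intervals from limma. AT1G33600 lies right of 0 in both panels and CML42 furthest from 0 after it in the left panel; none passed the adjusted threshold.

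The median within-group SD of the members was 0.143 on the log2 scale, against 0.128 for the 5353 other bright probe sets and 0.19 for the 528 dimmer ones that rose. The median size of a difference between the responses was 0.098 for members, against 0.09 for the other bright probe sets and 0.145 for the dimmer ones.

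Genes known from chitin and early defence signalling were looked up as a frame for the members. Of 168 entries in 16 lists, 27 had a probe set of 1 listed gene and 25 were above the floor. Of the 20 tested genes in the 13 lists on signalling, regulation and the wall, limma called 17 higher and 0 lower in the mutant, and 18 higher and 0 lower in WT, against 5.95% of all tested probe sets called higher in the mutant and 6.06% in WT. The lists were chosen with earlier results of these data known, and the members among them were selected by this same rise. Nothing is therefore read from these counts. Their levels in water were mostly under the limit: 4 were bright, FER, CML42, XTH18 and XTH19. WRKY53, a WRKY transcription factor gene, averaged 1443 with chitooctaose and 50.04 with water in the mutant, and 1160.0 with chitooctaose and 58.5 with water in WT. BIK1, a kinase that acts below the receptors, averaged 646.5 with chitooctaose and 232 with water in the mutant, and 533 with chitooctaose and 255.6 with water in WT. FER, a receptor kinase gene, averaged 961 with chitooctaose and 836 with water in the mutant, and 914 with chitooctaose and 858 with water in WT, and was not called, with log2 changes of 0.07 ± 0.09 in the mutant and 0.10 ± 0.09 in WT (SE). PUB26, a ubiquitin ligase gene, had an adjusted p of 0.112 in the mutant and 0.0498 in WT from limma; without any of 10 single arrays the WT call was lost, with an adjusted p of up to 0.163. Of the members with a listed gene, CML42 and XTH18 were in these lists. Whether any of the 37 members without a listed gene reads another entry of the lists was not tested. By list, genes called higher out of those tested were 2 of 3 for chitin perception, 3 of 3 for WRKY factors, 1 of 1 for stress zinc finger factors, 1 of 1 for jasmonate, 4 of 5 for calcium and 2 of 2 for cell wall and touch enzymes in either genotype, and 4 of 5 in the mutant and 5 of 5 in WT for ubiquitin ligases. None of the 5 tested reference, green tissue and root genes was called. No entry of the lists on MAP kinases, AP2/ERF factors, MYB factors, secretion, the oxidative burst and aromatic metabolism was measured by a probe set of 1 listed gene, and these were not analysed here.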

How the data were processed

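RNA of whole seedlings was hybridised to 12 one-colour arrays, 3 in each of 4 groups set by the labels' genotype and treatment. The deposited values are linear probe set intensities, with total RNA amplified from an oligo(dT) primer and labelled with biotin per the labels' protocols. Background correction, probe summarization and scaling by the authors are not given in the sources used here, and the number of arrays limits the precision.

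The membership rule was applied to the deposited intensities, with a mean of at least 256 over the water arrays, which is 8 on the log2 scale. For the tests, the deposited intensities were quantile-normalized first, then given a floor of 16 and put on the log2 scale. These values were fitted in limma 3.58.1 (R 4.3.3) with a mean for each group over all 12 arrays. The fit covered the 18680 probe sets above the floor on at least 1 array. Tests were two-sided, with Benjamini-Hochberg adjustment over that whole table and calls at an adjusted p under 0.05. The tests asked for mutant minus WT in water, mutant minus WT after chitooctaose, and the difference between the responses; the code was tested on simulated data. Quantile normalization removes any shift shared by most transcripts.

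The members and gene lists were chosen with earlier results of these data known. Genes came from GEO's platform annotation where a probe set had 1 symbol (13513 probe sets; 503 had several and 8730 none). Of the 35 listed members 33 matched RefSeq, and AT1G32920 and AT3G57450 keep the platform's names. Roles were assigned by hand. Named, among members with 1 listed gene, were up to 5 per role with the largest mean rise, the 3 with the lowest p in each direction of each test, those nearest the limits of the rule, and members in the gene lists; the probe sets without a listed gene and the gene AT5G18150 were added after their values were seen. Promoter motifs were not analysed here. The alternatives tried were other normalizations, floors, filters, priors, array weights, a replicate block and single arrays left out.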

Additional observations from a re-analysis of the deposited data

How the results depend on the processing

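The number of members followed the limit on the level most: 161 probe sets met the rule with a minimum log2 level in water of 7, all 72 members among them, and 22 with a minimum of 9. With the rule on normalized values there were 73, with the limit asked of each genotype's water arrays 69, with a rise of at least 1 asked of every same-numbered pair 57, and 71 to 77 with single arrays left out. Without both WT arrays that stood apart on the second component, an alternative chosen after seeing the data, there were 78, with 71 of the members among them. Limma called 0 of 72 members in each of the 3 tests under every alternative run; the lowest adjusted p of a member ranged between 0.484 and 1 for the difference between the responses, 0.121 and 0.917 for the genotypes after chitooctaose, and 0.346 and 1 for the genotypes in water. With the deposited intensities the response was larger in the mutant for 58 members, against 32 with normalized values, as the median of all probe sets moved to 0.101. On that scale 33 members were higher in the mutant in water, against 45 with normalized values, and 60 after chitooctaose, against 44. Relative to the median of all probe sets on the deposited scale, 44 members lay above it in water and 51 after chitooctaose. With single arrays left out, the response was larger in the mutant for 26 to 38 members (median difference -0.06 to 0.01), the level after chitooctaose higher in the mutant for 36 to 47 (median 0.0007 to 0.06) and the level in water for 44 to 50 (median 0.03 to 0.07). Single arrays were also left out for the listed genes with the lowest p in each direction of each test, and not for the other named genes. None of these differences changed sign, but several moved by over 1.5 times. In water they were AT1G19020 (0.18 to 0.40), AT1G31130 (0.16 to 0.34), AT2G18690 (-0.30 to -0.09) and AT4G08850 (-0.38 to -0.07). After chitooctaose they were AT1G27100 (0.08 to 0.24), SRC2 (-0.21 to -0.04), BZIP60 (-0.15 to -0.02) and AT4G26400 (-0.34 to -0.05). Between the responses they were AT1G19020 (-0.48 to -0.23), AT4G34150 (-0.29 to -0.13), AT1G50740 (-0.28 to -0.09), ATPMEPCRB (0.17 to 0.35) and pEARLI4 (0.11 to 0.28). A replicate block changed no call (0 of 72 in each test, with the same medians: -0.034 for the difference between the responses); deviations of same-numbered arrays had correlations between -0.265 and 0.427, so the numbers were not taken to pair the samples. With 3 arrays a group, the median 95% interval of a difference between the responses reached 0.359 to either side.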
